A study of Homo sapiens with 24 samples.

Results

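The uninduced NOD1 line was compared with the uninduced NLRP4 line across 18417 genes, on 8 of the 24 arrays of the series. These 8 arrays were taken by their source labels: 4 came from the NOD1 line without doxycycline (DOX) and 4 from the NLRP4 line without DOX. Both lines derive from THP-1, a human monocytic leukaemia cell line that grows in suspension and keeps many monocyte properties. Each had been transduced at low copy with the pSLIK_Neo lentivirus, in which a tetracycline-inducible promoter drives a FLAG-tagged copy of NOD1 or NLRP4, and had been selected with G418. The vector line had received the same lentivirus without an inserted coding sequence. All 3 lines were also sampled after DOX at 1 µg/ml for 6 h, which switches the inserted sequence on, with 4 arrays per group. The 8 arrays of the DOX-treated NOD1 and NLRP4 lines hold the same pair of lines in other wells. They serve here as a second measurement of the line difference.

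Wells held 50000 cells, and the RNA was total RNA hybridised to Affymetrix Human Gene ST arrays. The plate was filled in an assigned, non-randomised order, so place on the plate and line cannot be told apart. Whether a line is a clone or a selected pool, and whether the 4 wells of a group are separate cultures, is not given in the sources used here, so each p-value reflects spread among wells. Values are log2 signals after quantile normalization of the 24 arrays, and a difference is the NOD1 line minus the NLRP4 line. A gene was called where limma's moderated test, fitted over all 18417 genes, gave a Benjamini-Hochberg adjusted p below 0.05. Every adjusted p below comes from that fit. "Higher" and "lower" refer to the NOD1 line. Named genes are the 15 largest rises and falls, the members of each gene list with the lowest p, genes in runs of neighbours, and further genes chosen after their values were seen. Log2 signals are compared within a gene and not between genes, because probe sets differ in brightness.

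NOD1 is a cytosolic receptor that senses peptidoglycan fragments taken up from bacteria and passes the signal through the kinase RIPK2 to NF-kB and the MAP kinases. NLRP4 belongs to the same NOD-like receptor family and has been described as a brake on NF-kB and type I interferon signalling in cell lines. Monocytic cells are a main site of such sensing, and their activation is read out in NF-kB feedback genes, cytokines and interferon-stimulated genes.

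Of the monocytic markers measured, all but MPO lay between the 63.3rd (CEBPA) and the 98.5th percentile (LYZ) of gene means. Such percentiles compare probe sets of unlike brightness and are a rough guide only. Of 9 measured, LYZ (lysozyme) averaged 13.85 ± 0.04 in the NOD1 line and 13.59 ± 0.14 in the NLRP4 line (SD, n = 4 each), and CD68, a lysosomal membrane protein of macrophages, averaged 12.68 ± 0.11 in the NOD1 line and 11.47 ± 0.15 in the NLRP4 line. PTPRC alone of the 9 averaged lower in the NOD1 line, at 12.17 ± 0.25, against 12.59 ± 0.06 in the NLRP4 line. MPO, a granule enzyme of early myeloid cells, lay lower than the other markers, at the 28.4th percentile of gene means. Markers of T cells (CD3D, CD3E), B cells (MS4A1) and red cells (HBB) lay between the 7.75th and the 20.8th percentile. COL1A1, a fibroblast collagen, lay at the 65.4th percentile, at 9.30 ± 0.15 in the NOD1 line and 9.40 ± 0.05 in the NLRP4 line. That was above CEBPA, and KRT19, EPCAM and COL3A1 lay above MPO, at the 45.3rd, 36.4th and 36th percentile. In bulk RNA such as this, fewer cells of a type and less RNA per cell cannot be told apart.

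Without DOX each introduced gene lay far below its level with DOX, where NOD1 averaged 12.75 ± 0.18 in the NOD1 line and NLRP4 averaged 11.93 ± 0.26 in the NLRP4 line (SD, n = 4 each). NOD1 read 8.90, 8.65, 8.51 and 8.87 in the NOD1 line, against 8.11, 8.54, 8.20 and 8.30 in the NLRP4 line. The lowest NOD1-line array lay just under the highest NLRP4-line array, so the groups overlapped. The difference was 0.45 (SE 0.13, limma adjusted p = 0.0136), and an exact two-sided permutation test of the 8 arrays gave p = 0.0571, where 0.0286 is the smallest p this design allows. NLRP4 read 7.04, 6.66, 7.08 and 7.33 in the NOD1 line, against 7.81, 7.67, 8.61 and 8.27 in the NLRP4 line. All 4 NLRP4-line arrays lay above all 4 NOD1-line arrays. The difference was -1.06 (SE 0.19, limma adjusted p = 1.24e-04; exact permutation p = 0.0286), and the NOD1-line mean of 7.03 lay near the low end of the arrays. The vector line averaged 6.92 ± 0.33 for NLRP4 and 8.33 ± 0.19 for NOD1 (SD, n = 4). With DOX the line difference widened to 4.24 for NOD1 and to -4.90 for NLRP4. The probe set of each gene does not separate the introduced transcript from the cell's own. The NOD1 call was lost without replicate 1 of the uninduced NLRP4 line, where the difference was 0.39, and with the dimmest array of each line left out, where it was 0.42.

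**Figure D1:**
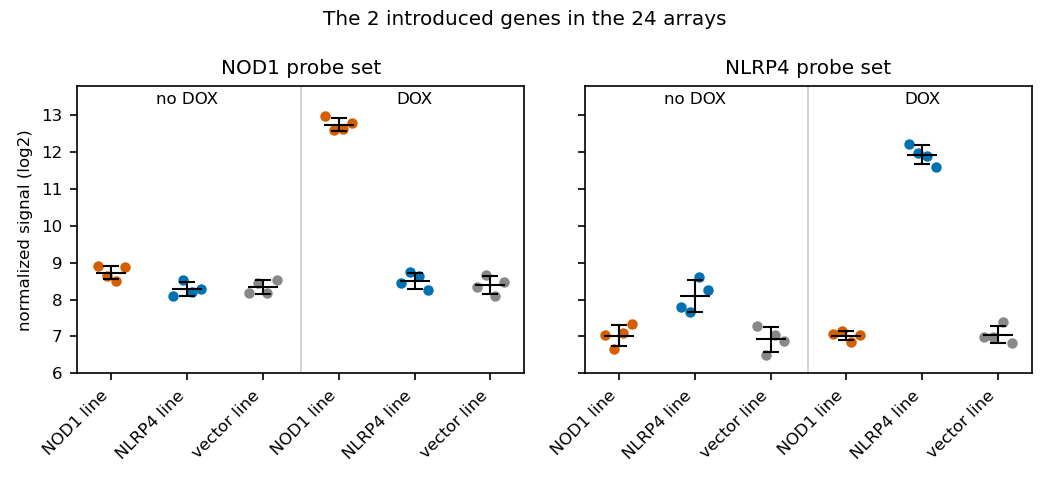
Log2 signal of NOD1 and NLRP4 on each array, with NOD1-line, NLRP4-line and vector-line arrays without and with DOX; points are arrays and bars are the group mean ± SD (n = 4 each). Without DOX the 4 NOD1-line arrays lie between 8.51 and 8.90 for NOD1, and the 4 NLRP4-line arrays lie between 7.67 and 8.61 for NLRP4.

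Away from those 2 genes, the uninduced lines differed widely. Of 18417 genes 4964 were called, 27.0% of those tested, with 2600 higher in the NOD1 line (14.1%) and 2364 lower (12.8%). Most differences were small: the 10th percentile of all differences was -0.45, the median 0.04 and the 90th percentile 0.39. Among the 504 genes called with a difference of at least 2-fold, 2.74% of those tested, 104 were higher and 400 lower. All 4 arrays of a line lay above all 4 of the other for 4605 genes, 25.0% of those tested, and 3962 of these were called. Correlations between arrays across genes ran from 0.982 to 0.987 within the NOD1 line, from 0.987 to 0.993 within the NLRP4 line and from 0.955 to 0.980 between the lines.

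The balance of higher and lower calls depended on how arrays were scaled. With each array centred on its median in place of quantile normalization, 4190 genes were called and 33.8% of them were higher, against 52.4% here. Without any added scaling, 4534 were called and 60.3% were higher. The median of all differences was -0.06 with centring and 0.12 without added scaling, so the direction of small differences depended on the scaling. Counts with centring are given beside those of each gene list, and are to be read against the 27.0% of all genes called, 14.1% higher and 12.8% lower.

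The same line difference was present in the DOX-treated wells. There 4684 genes were called (25.4%), 2465 higher (13.4%) and 2219 lower (12.0%). The direction of 3329 calls was shared, which is 67.1% of the uninduced calls and 71.1% of the DOX calls, and 5 genes were called in opposite directions (C2orf81, C6orf47, FBXO3, MORC4 and RPRD1B). Of the 504 calls of at least 2-fold, 463 were called in the same direction with DOX. Both sets of calls used a spread estimated for each gene over all arrays, so their overlap is not that of independent tests. Across genes the 2 sets of differences correlated with r = 0.825, and genes are not independent replicates. The split of the DOX calls also moved with scaling, to 59.7% higher with centring and 29.3% higher without added scaling. A test of whether the line difference itself changed with DOX called 2 genes, 0.0109%, which were NOD1 (3.79) and NLRP4 (-3.84). At an unadjusted p below 0.05, 1475 genes (8.01%) passed that test.

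The NLRP4 line stood close to the vector line, and the NOD1 line stood away from it. The uninduced NLRP4 line differed from the uninduced vector line in 3 genes (0.0163%): NLRP4 by 1.17, FLT3, a growth factor receptor of myeloid progenitors, by 0.56, and IL12RB2, a subunit of the interleukin-12 receptor, by -0.45. At an unadjusted p below 0.05, 913 genes (4.96%) passed. With DOX the NLRP4 line differed from the vector line in 7 genes (0.0380%), which were NLRP4 (4.88), NCAM2 (0.64), ANXA2P1 (-0.51), CD36 (-0.81), GABBR2 (-0.61), SCARB2 (-0.53) and TNFAIP3 (-0.61). The DOX-treated NOD1 line differed from the DOX-treated vector line in 4746 genes (25.8%). Those 8 arrays share none with the uninduced NOD1 and NLRP4 lines, although the estimate of each gene's spread was again shared. In both comparisons 3597 genes were called in the same direction, 72.5% of the uninduced calls and 75.8% of the calls against the vector.

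**Figure D2:**
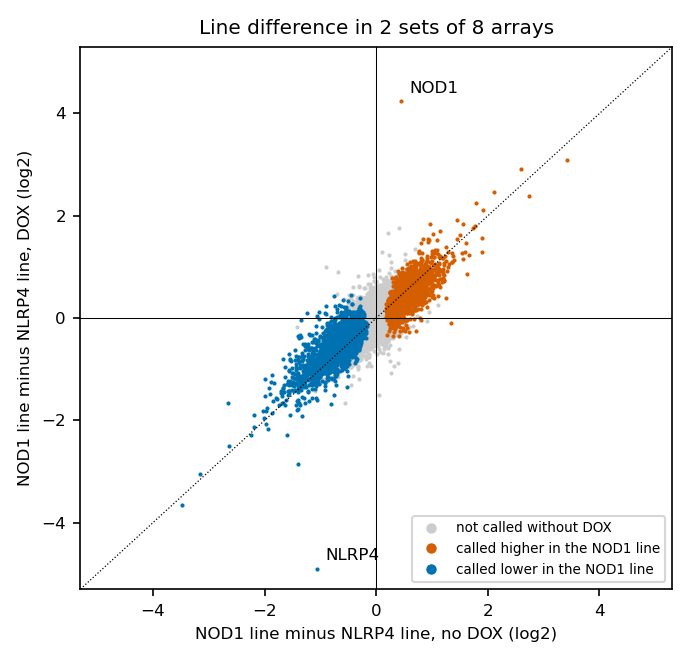
Difference of the NOD1 line minus the NLRP4 line for each gene, without DOX on the horizontal axis and with DOX on the vertical axis, in log2 units, with genes coloured by their call without DOX. Genes lie along the diagonal, with r = 0.825 across genes, while NOD1 and NLRP4 lie away from it.

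The largest rises of the NOD1 line were in genes of varied roles, several of them at the cell surface. They were the 15 largest among 2871 genes that were called in both the uninduced and the DOX-treated comparison in the same direction and whose uninduced arrays did not overlap. ALX1, a homeobox transcription factor of the facial skeleton, read 10.65, 11.06, 11.28 and 11.04 in the NOD1 line, against 8.11, 7.53, 7.53 and 7.16 in the NLRP4 line. The lowest NOD1-line array stood well above the highest NLRP4-line array, and the rise was 10.7-fold (log2 3.42, SE 0.25, adjusted p = 1.38e-09). BEX5, a small X-linked protein, read 9.69, 9.52, 10.05 and 9.99 in the NOD1 line, against 7.37, 7.00, 6.86 and 7.08 in the NLRP4 line. The NLRP4-line arrays were near the low end, so the rise was at least 6.68-fold (log2 2.74, adjusted p = 4.74e-11).

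S100A8, a calcium-binding subunit of calprotectin that is abundant in monocytes and neutrophils, read 11.21, 11.79, 11.83 and 12.20 in the NOD1 line, against 8.97, 8.98, 9.41 and 9.28 in the NLRP4 line. The groups were far apart, and the rise was 6.05-fold (log2 2.60, SE 0.27, adjusted p = 1.79e-07). Its partner S100A9 was higher by 0.95 (adjusted p = 3.59e-05). KIT, the receptor for stem cell factor, read 9.10, 9.23, 8.98 and 9.05 in the NOD1 line, against 6.83, 7.33, 7.21 and 7.38 in the NLRP4 line, where it was near the low end. Its rise was at least 3.74-fold (log2 1.90, adjusted p = 6.07e-10). ANPEP (CD13), a surface peptidase of myeloid cells, read 11.80, 12.03, 11.21 and 11.69 in the NOD1 line, against 9.78, 9.65, 9.77 and 9.93 in the NLRP4 line. Here too no arrays overlapped, and the rise was 3.73-fold (log2 1.90, adjusted p = 8.12e-09).

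CD93, a lectin-like surface receptor of myeloid and endothelial cells, averaged 10.61 in the NOD1 line and 8.95 in the NLRP4 line, a rise of 3.16-fold. CAV1 (caveolin), a scaffold of membrane invaginations, averaged 9.46 in the NOD1 line and 7.69 in the NLRP4 line (3.42-fold). NID1 (nidogen), a basement membrane linker, averaged 10.71 in the NOD1 line and 9.12 in the NLRP4 line (3.01-fold). PIP5K1A, a kinase that makes the phosphoinositide PIP2, averaged 9.49 in the NOD1 line and 7.58 in the NLRP4 line, with single NOD1-line arrays from 8.84 to 10.30. Interferon-stimulated MX1 (3.47-fold) and IFI27 (2.93-fold) were also in the set and are described with their group. The remaining rises were TSPYL5 (4.32-fold), the zinc finger genes ZNF439 and ZNF772 (at least 3.34-fold and at least 3.07-fold) and the olfactory receptor pseudogene OR52K3P (at least 3.07-fold). All 15 kept their call when each of the 8 uninduced arrays was left out in turn, which the selection for large differences without overlap makes likely.

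**Figure D3:**
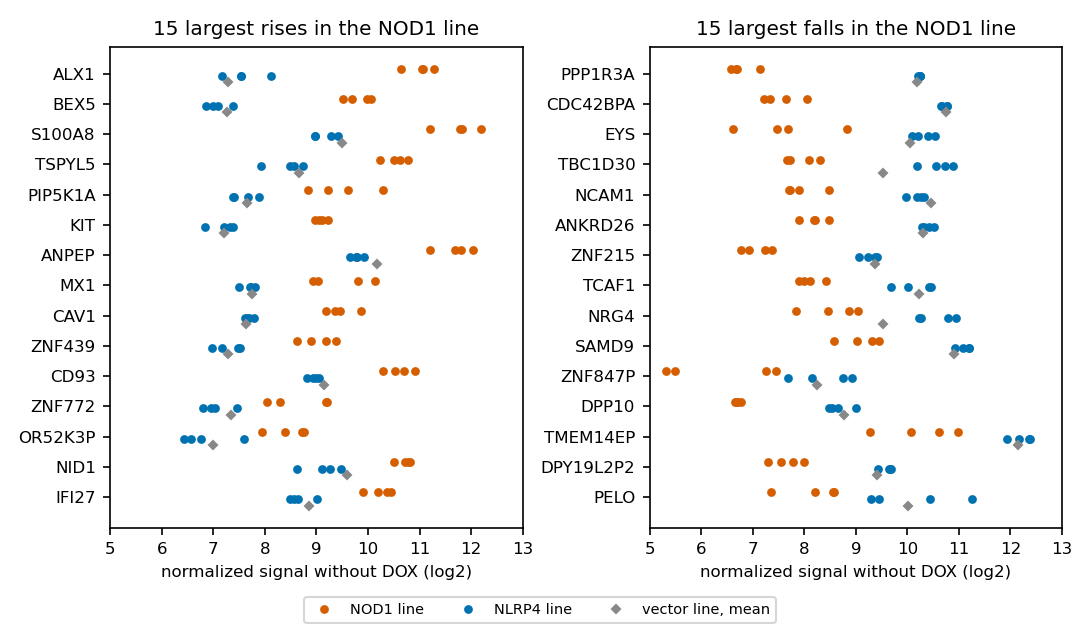
Log2 signal of the 15 largest rises and 15 largest falls on each uninduced array, with the NOD1-line arrays drawn above the NLRP4-line arrays and a grey diamond at the vector-line mean. In every one of the 30 genes the 4 arrays of a line lie apart from the 4 of the other, as the selection required.

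The largest falls were steeper. PPP1R3A, a glycogen-targeting subunit of protein phosphatase 1 known from muscle, read 6.69, 6.58, 7.13 and 6.67 in the NOD1 line, against 10.25, 10.25, 10.21 and 10.24 in the NLRP4 line. The NOD1-line arrays were near the low end while the NLRP4-line arrays were almost identical, and the fall was at least 11.1-fold (log2 -3.47, SE 0.14, adjusted p = 7.30e-14). CDC42BPA, a kinase that acts downstream of the GTPase CDC42 on the actin cytoskeleton, read 7.21, 7.65, 8.06 and 7.34 in the NOD1 line, against 10.66, 10.76, 10.68 and 10.77 in the NLRP4 line. Its fall was 8.90-fold (log2 -3.15, SE 0.13, adjusted p = 7.30e-14), with no overlap. NCAM1 (CD56), a neural cell adhesion molecule also found on natural killer cells and on some myeloid leukaemias, read 7.71, 7.90, 8.47 and 7.72 in the NOD1 line, against 10.19, 10.33, 9.98 and 10.26 in the NLRP4 line. It was 4.73-fold lower (log2 -2.24, adjusted p = 1.39e-10), again without overlap.

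TBC1D30, a Rab GTPase-activating protein, averaged 7.94 in the NOD1 line, 10.59 in the NLRP4 line and 9.53 in the vector line. NRG4, a ligand of the receptor ERBB4, averaged 8.55 in the NOD1 line, 10.56 in the NLRP4 line and 9.52 in the vector line. ANKRD26, whose mutation causes an inherited thrombocytopenia, fell 4.59-fold, and DPP10, a modulator of potassium channels, at least 3.92-fold. SAMD9, an antiviral protein encoded on chromosome 7, read 9.32, 8.58, 9.45 and 9.02 in the NOD1 line, against 11.19, 11.07, 11.20 and 10.92 in the NLRP4 line. That is a 4-fold fall with no overlap (log2 -2.00, SE 0.15, adjusted p = 1.72e-09). PELO, a ribosome rescue factor, varied most among NLRP4-line arrays (10.44, 9.30, 9.44 and 11.26), against 7.36, 8.57, 8.20 and 8.56 in the NOD1 line.

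EYS, a photoreceptor protein, rested on a single probe set: it fell by 2.66, while the gene's other 4 probe sets gave differences between -0.10 and 0.10, none of them called. In a fit over all probe sets TCAF1, a modulator of the TRPM8 channel, gave -2.04 with the probe set used and -1.06 and 0.17 with its other ones. ZNF215 (at least 4.57-fold), the pseudogene DPY19L2P2 (3.87-fold), TMEM14EP (3.91-fold) and ZNF847P (at least 3.98-fold) complete the 15. ZNF847P was no longer called with the dimmest array of each line left out. Zinc finger genes and pseudogenes have near-identical copies, so their probe sets may collect signal from relatives.

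The NOD1 signalling pathway did not move as a block. Of its 21 measured members 6 rose and 5 fell, with a median difference of 0.02 (all genes 0.04). With centring 6 rose and 6 fell, with a median of -0.08. These counts may include NOD1 itself, the introduced gene. RIPK2, the kinase NOD1 recruits, read 9.36, 9.24, 9.40 and 9.21 in the NOD1 line, against 9.56, 9.64, 9.41 and 9.82 in the NLRP4 line. The NOD1-line arrays were all lower, by 0.30 on average, but the adjusted p was 0.0676. NOD2, the related sensor of muramyl dipeptide, differed by 0.02 (adjusted p = 0.939). RNF31, the catalytic subunit of the linear ubiquitin ligase that feeds NF-kB, rose by 0.56, and SLC15A4, a lysosomal transporter that exports such peptides, rose by 0.83. ERBIN, a scaffold known to bind NOD2 and restrain it, fell by 0.90 (adjusted p = 3.29e-05). Within the IkB kinase complex CHUK was -0.56 and IKBKB 0.50; the IKBKB call was lost without the dimmest array of each line, with the compared arrays alone, and without replicate 1 of the NLRP4 line.

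Of 25 measured NF-kB subunits and feedback genes 9 rose, 1 fell and 15 did not pass, with a median of 0.13. With centring 7 rose and 2 fell, and with DOX 8 rose and 3 fell. NFKBIA, the inhibitor IkB-alpha that NF-kB itself induces, read 10.86, 11.15, 10.60 and 11.22 in the NOD1 line, against 9.84, 9.81, 9.92 and 9.47 in the NLRP4 line. It was 2.29-fold higher with no overlap (log2 1.20, SE 0.15, adjusted p = 1.31e-06). TNFAIP3 (A20), a ubiquitin-editing brake on NF-kB, read 9.67, 9.75, 9.56 and 9.30 in the NOD1 line, against 8.65, 8.75, 8.47 and 8.57 in the NLRP4 line. It was 1.94-fold higher (adjusted p = 9.82e-07), and the vector line lay between the lines at 8.99 ± 0.15. The subunit RELA rose by 0.67 and TNIP1, a partner of A20, by 0.62, while the subunit REL was -0.38. REL lost its call in 6 of the other fits, among them 3 of the 8 with an array left out. Without the dimmest array of each line 5 members of the group rose and 0 fell.

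Of 34 measured cytokines and chemokines 5 rose and 0 fell, 14.7% against 27.0% of all genes, with 29 not passing and a median of 0.09. With centring 3 rose and 0 fell, and with DOX 2 rose and 1 fell. TNF read 8.37, 8.92, 9.14 and 9.27 in the NOD1 line, against 7.89, 8.15, 8.39 and 8.22 in the NLRP4 line. The groups overlapped by a single NOD1-line array, and the rise was 0.76 (SE 0.14, adjusted p = 1.64e-04). With DOX the TNF difference was 0.31 (adjusted p = 0.109). IL1B, the pyrogenic cytokine, averaged 8.52 ± 0.46 in the NOD1 line and 7.82 ± 0.31 in the NLRP4 line (SD, n = 4 each), with adjusted p = 0.00902 and overlapping arrays; without the dimmest arrays it was not called. With those arrays out 1 cytokine gene was called.

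Of 24 measured NOD-like receptors and inflammasome genes 5 rose and 2 fell, together 29.2% against 27.0% of all genes (4 and 2 with centring). NOD1 and NLRP4 belong to this family themselves, so these counts may include the introduced genes. CASP1, the protease that matures IL-1 beta, read 10.42, 11.06, 11.20 and 11.18 in the NOD1 line, against 10.03, 9.84, 10.30 and 10.33 in the NLRP4 line. No arrays overlapped, the rise was 1.79-fold (adjusted p = 2.70e-04), and with DOX the log2 difference was 1.55 against 0.84 without. The sensor NLRP3 rose by 0.50 and the adaptor PYCARD (ASC) by 0.57, both without overlap. NAIP, which detects bacterial flagellin and secretion needles, fell by 0.86 (adjusted p = 4.32e-05); its genomic copies are nearly identical, so the value may mix them. CASP4, the receptor protease for intracellular lipopolysaccharide, rose by 0.61 but was not called with arrays centred.

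Interferon-stimulated genes split into a larger group that rose and a smaller one that fell. Of 47 measured, 20 rose, 7 fell and 20 did not pass, with a median of 0.29 (all genes 0.04); with DOX 22 rose and 4 fell, and with centring 17 rose and 7 fell. Promoters of 3 members that rose (IFI27, IFITM3, IFI44L) and 2 that fell (HERC5, DDX60) are shown because both directions carry the letters of an interferon response element. The 250 bases before the RefSeq start of each gene (GRCh38.p14) are given 5′ to 3′ on the gene's strand, with matches to GAAANNGAA on either strand in capitals. They lie at chr14:94110486-94110735, plus strand (IFI27), chr11:320861-321110, minus strand (IFITM3), chr1:78620198-78620447, plus strand (IFI44L), chr4:88456869-88457118, plus strand (HERC5) and chr4:168318753-168319002, minus strand (DDX60).
IFI27: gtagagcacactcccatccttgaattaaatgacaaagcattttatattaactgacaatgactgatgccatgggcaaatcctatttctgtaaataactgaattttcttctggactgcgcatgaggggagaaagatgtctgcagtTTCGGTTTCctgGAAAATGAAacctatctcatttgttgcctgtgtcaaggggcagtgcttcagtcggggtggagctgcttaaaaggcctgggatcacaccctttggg
IFITM3: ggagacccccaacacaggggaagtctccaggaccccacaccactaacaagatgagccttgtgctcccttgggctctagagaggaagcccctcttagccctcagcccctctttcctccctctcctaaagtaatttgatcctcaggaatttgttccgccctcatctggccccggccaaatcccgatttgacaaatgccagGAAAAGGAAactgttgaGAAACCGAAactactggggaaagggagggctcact
IFI44L: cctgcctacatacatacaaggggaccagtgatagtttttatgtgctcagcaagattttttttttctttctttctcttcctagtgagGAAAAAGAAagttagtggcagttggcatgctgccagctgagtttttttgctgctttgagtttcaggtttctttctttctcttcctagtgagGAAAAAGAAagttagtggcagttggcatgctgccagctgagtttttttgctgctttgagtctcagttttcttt
HERC5: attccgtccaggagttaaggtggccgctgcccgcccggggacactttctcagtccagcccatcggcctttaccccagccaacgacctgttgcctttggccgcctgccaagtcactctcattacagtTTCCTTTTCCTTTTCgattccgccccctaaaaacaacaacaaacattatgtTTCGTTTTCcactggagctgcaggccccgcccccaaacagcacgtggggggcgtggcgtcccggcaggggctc
DDX60: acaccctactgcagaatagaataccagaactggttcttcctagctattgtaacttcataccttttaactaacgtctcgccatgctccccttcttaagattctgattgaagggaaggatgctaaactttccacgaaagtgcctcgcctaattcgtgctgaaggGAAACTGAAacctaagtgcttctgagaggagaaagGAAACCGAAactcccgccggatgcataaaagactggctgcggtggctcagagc

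Over a window of 300 bases, from 250 before to 50 after the start, GAAANNGAA was present in 14 of 17 members that rose, in 4 of 6 that fell and in 10 of 15 that did not pass, counting those with a promoter sequence. It was present in 9.86% of all 27305 genes with a promoter sequence and in 8.11% of all 35116 windows. IFI27 had 2 promoter windows, and the window shown was picked by its number of matches. A match is a description of the letters only.

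MX1, a dynamin-like antiviral GTPase, read 9.03, 10.14, 9.80 and 8.94 in the NOD1 line, against 7.49, 7.81, 7.71 and 7.73 in the NLRP4 line. The NOD1-line arrays were all higher but spread over more than 1 log2 unit, and the rise was 1.79 (SE 0.21, adjusted p = 5.84e-07). IFI27, a mitochondrial interferon-induced protein, read 10.37, 10.45, 9.91 and 10.19 in the NOD1 line, against 9.01, 8.48, 8.65 and 8.56 in the NLRP4 line, a rise of 1.55 without overlap. IFITM3, which blocks virus entry at endosomes, read 9.15, 9.60, 9.71 and 9.60 in the NOD1 line, against 7.83, 8.36, 7.90 and 8.22 in the NLRP4 line. It was 2.71-fold higher (adjusted p = 1.45e-06); IFITM3 and IFITM2, which rose by 0.58, are close copies and may share signal. IFI44 and IFI44L were higher by 1.45 and 1.38, with the NLRP4 line near the low end. Rises of OAS2 (0.77), an RNA-sensing synthetase, BST2 (0.79), which tethers budding virions, TRIM22 (0.89) and the peptide transporter TAP1 (0.84) were smaller.

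Among the falls, HERC5, the ligase that attaches ISG15, read 8.31, 8.30, 8.05 and 7.68 in the NOD1 line, against 9.02, 8.96, 9.30 and 9.11 in the NLRP4 line. DDX60, an RNA helicase, read 8.74, 8.51, 8.47 and 8.63 in the NOD1 line, against 9.48, 9.73, 9.73 and 9.50 in the NLRP4 line. Both fell without overlap, HERC5 by 1.01 and DDX60 by 1.02 on the log2 scale, as did SAMD9 above. With DOX the HERC5 difference was -0.34 and was not called (adjusted p = 0.0844). ISG15 itself, the ubiquitin-like modifier, differed by 0.29 (adjusted p = 0.0891), and IFIT1, a sensor of viral RNA caps, by 0.61 (adjusted p = 0.126). MX2 was -0.63 (adjusted p = 0.0139), and its call was lost with the compared arrays alone and without replicate 1 or replicate 4 of the NOD1 line.

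Monocyte and macrophage genes were higher in the NOD1 line more often than lower. Of 40 measured, 17 rose, 3 fell and 20 did not pass, with a median of 0.24. With centring 11 rose and 3 fell. The members named here are all among those that rose. CD68 read 12.76, 12.75, 12.52 and 12.70 in the NOD1 line, against 11.50, 11.54, 11.24 and 11.59 in the NLRP4 line. The groups stood about 1 unit apart, and CD68 was 2.32-fold higher (adjusted p = 2.01e-07). ITGAL, the alpha chain of the integrin LFA-1, read 10.39, 10.39, 10.12 and 10.24 in the NOD1 line, against 8.94, 9.24, 9.33 and 9.46 in the NLRP4 line, and was 2.06-fold higher without overlap. CSF1R, the receptor of macrophage colony-stimulating factor, rose by 0.70 and CD4 by 0.86. The rise of LYZ, 0.26, was lost with centring and in 3 further fits, and that of CD14, the lipopolysaccharide co-receptor, 0.27, was lost with centring, without added scaling and in 6 further fits.

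Of 17 granule proteins of early myeloid cells 6 rose, 1 fell and 10 did not pass, 41.2% called against 27.0% of all genes, with a median of 0.24 (4 and 1 with centring). PRTN3 (proteinase 3) rose by 0.78 and AZU1 (azurocidin) by 0.85, both without overlap, whereas SRGN, the proteoglycan that packs granules, fell by 0.52. MPO differed by 0.15 (adjusted p = 0.134). Among 33 myeloid transcription factors 8 rose and 3 fell, 33.3% called against 27.0% of all genes. With centring 5 rose and 4 fell, and with DOX 6 rose and 4 fell. SPI1 (PU.1), the main regulator of the myeloid lineage, averaged 10.33 ± 0.16 in the NOD1 line and 9.61 ± 0.09 in the NLRP4 line (SD, n = 4 each), a rise of 0.72 (adjusted p = 6.25e-06). JUN rose by 0.56, and ZEB2 and MITF fell by 0.39 and 0.69. In the fit over all probe sets ZEB2 gave -0.40 with the probe set used and -1.53 (adjusted p = 2.05e-06) with its other one. Of 26 stem and progenitor genes 5 rose and 0 fell, led by KIT; 3 rose and 3 fell with centring. Of 12 class II antigen presentation genes 2 rose and 2 fell (1 and 2 with centring).

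The list of Toll-like receptors and co-receptors also held the lectin CLEC12A and signalling proteins such as TRAF6. Of its 23 measured members 4 rose and 4 fell, 34.8% called against 27.0% of all genes, with a median of 0.05. With centring 2 rose and 4 fell, with a median of -0.12, and with DOX 0 rose and 2 fell. TLR4, the lipopolysaccharide receptor, read 8.66, 8.53, 9.02 and 9.04 in the NOD1 line, against 10.27, 10.00, 9.90 and 9.98 in the NLRP4 line. CLEC12A, an inhibitory lectin of myeloid cells, read 7.85, 8.11, 8.01 and 8.10 in the NOD1 line, against 9.34, 9.60, 9.16 and 9.00 in the NLRP4 line. Both were lower on all 4 NOD1-line arrays, TLR4 by 2.34-fold (adjusted p = 2.09e-06) and CLEC12A by 2.39-fold (adjusted p = 6.21e-06). TRAF6, a ubiquitin ligase downstream of Toll-like receptors, rose by 0.59.

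Integrins and adhesion molecules were mixed, with 6 of 30 higher and 7 lower (4 and 7 with centring). ITGA5, the fibronectin receptor chain, rose by 1.01, while ITGA4, the chain of VLA-4, fell by 0.92 (adjusted p = 2.05e-06). EPCAM, an epithelial adhesion molecule, averaged 7.12 ± 0.59 in the NOD1 line, 8.72 ± 0.48 in the NLRP4 line and 9.01 ± 0.96 in the vector line (SD, n = 4 each), but a second probe set of the gene differed by 0.02. Of 37 growth factor and cytokine receptors 9 rose and 3 fell, 32.4% called against 27.0% of all genes (5 and 3 with centring). FGFR1 rose by 1.00 and IL6R by 0.80, and IFNAR1, a chain of the type I interferon receptor, fell by 0.72 (adjusted p = 4.75e-06). IL12RB2, which the NLRP4 line held below the vector line, averaged 11.41 ± 0.14 in the NOD1 line, 10.75 ± 0.14 in the NLRP4 line and 11.20 ± 0.07 in the vector line (SD, n = 4 each). Of 35 MAP kinase feedback and early genes 7 rose and 2 fell, 25.7% called against 27.0% of all genes. With centring, and likewise with the span trend described below removed, 2 rose and 2 fell, and with DOX 3 rose and 1 fell. SPRED1, an inhibitor of RAS signalling, was 2.85-fold lower (log2 -1.51).

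Antioxidant genes that the transcription factor NRF2 is known to control rose as a group: of 30 measured, 18 rose, 0 fell and 12 did not pass, with a median of 0.36 (all genes 0.04). With DOX 17 rose and 1 fell, and with centring 13 rose and 1 fell. The promoters of PGD and ME1, which rose most among those with a match, and of TXNRD1 and GCLM are shown because they hold the core letters of the antioxidant response element. The 250 bases before each RefSeq start (GRCh38.p14) are given 5′ to 3′ on the gene's strand, with TGACNNNGC on either strand in capitals, from chr1:10398814-10399063, plus strand (PGD), chr6:83431052-83431301, minus strand (ME1), chr12:104215529-104215778, plus strand (TXNRD1) and chr1:93909431-93909680, minus strand (GCLM).
PGD: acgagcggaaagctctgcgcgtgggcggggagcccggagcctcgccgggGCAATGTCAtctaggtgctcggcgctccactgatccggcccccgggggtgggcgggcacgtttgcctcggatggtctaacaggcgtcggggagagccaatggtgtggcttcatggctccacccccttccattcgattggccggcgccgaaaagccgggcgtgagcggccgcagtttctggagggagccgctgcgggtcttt
ME1: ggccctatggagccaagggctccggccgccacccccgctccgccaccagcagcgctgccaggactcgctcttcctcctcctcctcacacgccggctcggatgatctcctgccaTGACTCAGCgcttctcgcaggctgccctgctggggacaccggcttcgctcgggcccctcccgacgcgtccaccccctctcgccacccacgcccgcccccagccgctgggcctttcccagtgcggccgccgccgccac
TXNRD1: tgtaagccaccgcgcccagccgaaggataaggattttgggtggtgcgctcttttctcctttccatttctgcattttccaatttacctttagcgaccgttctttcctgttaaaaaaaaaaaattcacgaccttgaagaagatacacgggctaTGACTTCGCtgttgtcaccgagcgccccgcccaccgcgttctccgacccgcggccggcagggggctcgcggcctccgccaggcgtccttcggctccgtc
GCLM: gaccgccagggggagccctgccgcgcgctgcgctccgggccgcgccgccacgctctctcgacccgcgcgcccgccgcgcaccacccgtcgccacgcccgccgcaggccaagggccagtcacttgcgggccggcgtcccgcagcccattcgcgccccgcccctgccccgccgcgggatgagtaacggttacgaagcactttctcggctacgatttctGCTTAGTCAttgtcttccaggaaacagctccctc

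In the 300-base window TGACNNNGC was present in 5 of 15 members that rose (GCLM, TXNRD1, PGD, ME1 and CBR1) and in 4 of 9 that did not pass, counting those with a promoter sequence. It was present in 16.1% of the 27305 genes with a promoter sequence and in 13.3% of the 35116 windows, and the element can lie outside this window. TXNRD1 had 2 promoter windows, and the window shown was picked by its number of matches.

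PGD, a dehydrogenase of the pentose phosphate pathway that makes NADPH, read 12.25, 12.32, 11.89 and 12.18 in the NOD1 line, against 10.98, 11.15, 11.15 and 11.12 in the NLRP4 line. It was 2.09-fold higher with no overlap (log2 1.06, SE 0.09, adjusted p = 1.24e-08). FTL, the ferritin light chain that stores iron, read 12.71, 12.89, 12.49 and 12.53 in the NOD1 line, against 11.60, 11.61, 11.68 and 11.67 in the NLRP4 line, and was 2.02-fold higher (adjusted p = 5.48e-09). ME1, the cytosolic malic enzyme, rose by 1.05, and its vector-line mean of 9.99 lay between 10.49 in the NOD1 line and 9.44 in the NLRP4 line. SLC7A11, the cystine importer for glutathione synthesis, read 10.83, 9.86, 10.69 and 10.98 in the NOD1 line, against 9.68, 9.70, 9.41 and 9.49 in the NLRP4 line. Replicate 2 of the NOD1 line lay near the NLRP4 line while the rest were higher, and the rise was 1.02 (SE 0.20, adjusted p = 3.35e-04).

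NQO1, a quinone reductase, rose by 0.93, and by 1.48 in the DOX-treated wells. Glutathione reductase GSR rose by 0.89 and TALDO1, transaldolase of the pentose phosphate pathway, by 0.81. AKR1C1, an aldo-keto reductase, rose by 0.97, but its second probe set gave 0.13 and its close relatives may share signal. TXNRD1 (thioredoxin reductase) rose by 0.57 and was not called with centring; GCLM, the modifier subunit of glutathione synthesis, was 0.61 and lost its call in 6 of the other fits. HMOX1, the haem oxygenase that is a common reporter of this pathway, differed by 0.05 (adjusted p = 0.783). NFE2L2, which encodes NRF2, averaged 11.93 ± 0.25 in the NOD1 line and 12.15 ± 0.12 in the NLRP4 line (SD, n = 4 each; adjusted p = 0.116), and KEAP1, its inhibitor, averaged 9.59 ± 0.19 in the NOD1 line and 9.34 ± 0.09 in the NLRP4 line (adjusted p = 0.0989).

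Metallothionein and zinc genes were also higher in the NOD1 line more often than lower, while iron handling genes had a median near that of all genes. Of 11 metallothionein and zinc genes 7 rose and 1 fell, with a median of 0.43 (4 rose and 1 fell with centring). MT1G, a zinc-buffering metallothionein, averaged 10.28 ± 0.15 in the NOD1 line and 9.50 ± 0.10 in the NLRP4 line (SD, n = 4 each), a rise of 0.78. MTF1, the zinc-sensing factor that induces metallothioneins, rose by 0.76 (adjusted p = 3.53e-07), and the zinc importer SLC39A10 fell by 1.00 (adjusted p = 3.96e-06). Metallothioneins are near-identical copies, so their separate values are uncertain. In iron handling 5 of 18 rose and 2 fell, with a median of 0.03 against 0.04 over all genes (4 and 2 with centring). The transferrin receptor TFRC fell by 0.48 and ALAS1, the first enzyme of haem synthesis, rose by 1.02.

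Of 28 genes of the ATF4 amino acid response, which serve amino acid supply, 11 rose, 2 fell and 15 did not pass, with a median of 0.16 (7 and 2 with centring). SHMT2, the mitochondrial serine hydroxymethyltransferase, read 11.89, 12.21, 11.72 and 11.87 in the NOD1 line, against 10.92, 10.67, 10.66 and 11.05 in the NLRP4 line, a rise of 1.10 (adjusted p = 3.36e-06). SLC3A2, the heavy chain of amino acid exchangers, rose by 0.98 and its light chain SLC7A5 by 0.86. ASNS, asparagine synthetase, read 9.59, 10.23, 9.80 and 10.18 in the NOD1 line, against 10.82, 10.75, 10.75 and 10.69 in the NLRP4 line. It fell by 0.81 without overlap, and DDIT4, an inhibitor of mTORC1, fell by 1.10. The stress factor DDIT3 (CHOP) rose by 0.78.

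Enzymes that charge tRNAs rose in 9 of 19 cases and fell in 3, with a median of 0.22 (5 and 3 with centring). FARSA, the phenylalanine enzyme's alpha subunit, rose 2.31-fold, AARS1 (alanine) by 0.83 and MARS1 (methionine) by 0.74, whereas LARS1 (leucine) fell by 0.41. Of 23 chaperones and stress genes of the endoplasmic reticulum 10 rose and 4 fell (6 and 5 with centring). HYOU1, a large chaperone, was 1.30 higher (adjusted p = 2.23e-08) and PDIA4, a disulfide isomerase, 0.63, while EIF2AK3, the stress kinase PERK, fell by 0.60.

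Glycolysis and hypoxia genes moved both ways. Of 32 measured 9 rose and 11 fell, with a median of 0.01. With centring 5 rose and 11 fell, with a median of -0.07, and with DOX 5 rose and 12 fell. The glycolytic enzymes ENO1 (0.81) and ALDOA (0.80) rose, as did SLC2A1, the main glucose importer (0.94), while SLC2A3, a high-affinity glucose importer, fell by 0.93 and HK2 by 0.70. LDHA, lactate dehydrogenase, differed by -0.04 (adjusted p = 0.788) and PGK1 by 0.17 (adjusted p = 0.142). BNIP3, a hypoxia-induced mitophagy receptor, read 10.33, 10.35, 10.52 and 10.07 in the NOD1 line, against 11.45, 11.68, 11.91 and 11.52 in the NLRP4 line. Its relative BNIP3L read 9.30, 8.94, 9.58 and 9.11 in the NOD1 line, against 10.78, 10.82, 10.51 and 10.44 in the NLRP4 line. Both were lower on all arrays, BNIP3 by 2.50-fold (adjusted p = 9.72e-07) and BNIP3L by 2.65-fold (adjusted p = 6.86e-07).

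PDK1, which shuts pyruvate off from mitochondria, averaged 9.87 ± 0.14 in the NOD1 line and 11.25 ± 0.25 in the NLRP4 line (SD, n = 4 each), a 2.60-fold fall. ERO1A, a hypoxia-induced oxidase, fell by 1.17 and HIF1A, the oxygen-regulated factor itself, by 0.62 (adjusted p = 8.09e-05). In sterol and fatty acid synthesis 5 of 27 rose and 6 fell (2 and 6 with centring); CYP51A1 (-0.77) and IDI1 (-0.79) of the sterol branch fell, and ACLY (0.59) and FASN (0.35) of the fatty acid branch rose.

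Organelle and protein turnover genes were higher in part, and the size of that shift rested on scaling. Of 31 lysosome genes 16 rose and 1 fell, with a median of 0.30; with centring 10 rose and 1 fell. PSAP, the precursor of the saposins, rose by 0.88 and ATP6V0D1, a subunit of the acidifying pump, by 1.18. Of 31 proteasome subunits 18 rose and 1 fell, with a median of 0.28, but with centring 3 rose and 1 fell (median 0.10). PSMC3, an ATPase of the cap, rose by 0.80 and PSMB2 of the core by 0.67. Of 45 nuclear-encoded respiratory chain subunits 17 rose and 1 fell, with a median of 0.17 that turned to -0.03 with centring, where 4 rose and 0 fell; NDUFV1 (1.17) and CYC1 (1.10) rose most in that group. Of 36 ribosomal protein genes 3 rose and 2 fell, with a median of 0.03; with centring 0 rose and 1 fell, with a median of -0.20.

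**Figure D4:**
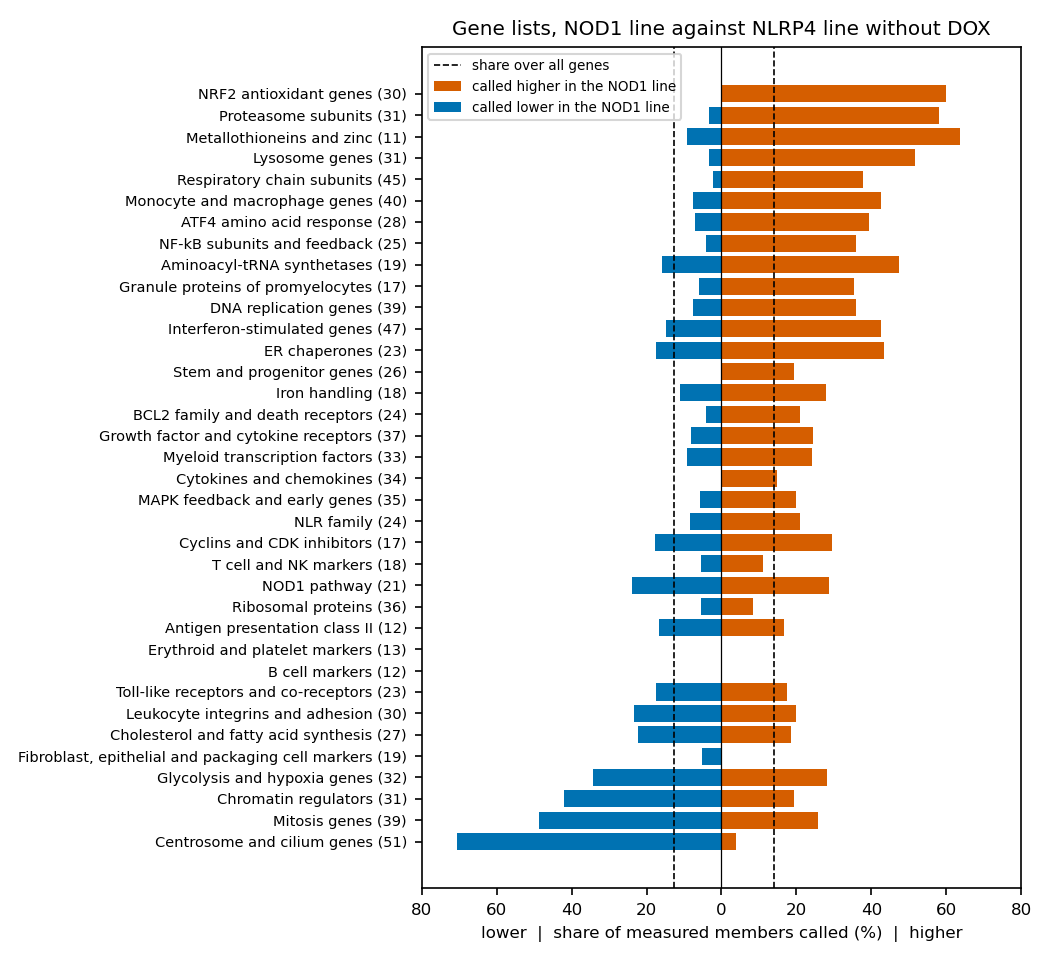
Percent of the measured members of each gene list (their number in brackets) called higher, to the right, and lower, to the left, in the uninduced NOD1 line against the uninduced NLRP4 line; dashed lines mark the shares over all genes, 14.1% and 12.8%. NRF2 antioxidant genes, with 18 of 30 higher and 0 lower, lie at the top, and centrosome and cilium genes, with 2 of 51 higher and 36 lower, at the bottom.

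Cell cycle genes also moved both ways. Of 39 DNA replication genes 14 rose and 3 fell, with a median of 0.21 (7 and 3 with centring); ORC6 of the origin complex rose by 0.70 and CCNE1 (cyclin E) by 0.68, while POLA1, a catalytic subunit of the priming polymerase, fell by 0.65. Of 39 mitosis genes 10 rose and 19 fell, with a median of -0.23 (4 and 18 with centring, -0.39). CENPF, a large kinetochore protein, read 12.78, 11.95, 12.56 and 12.32 in the NOD1 line, against 13.65, 13.69, 13.85 and 13.60 in the NLRP4 line, a 2.45-fold fall without overlap (adjusted p = 2.71e-08). KIF11, the motor that separates spindle poles, read 10.72, 10.28, 11.12 and 11.09 in the NOD1 line, against 11.97, 11.97, 11.99 and 11.94 in the NLRP4 line. Its NLRP4-line arrays were nearly equal, and the fall was 2.25-fold.

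CDC20, which activates the anaphase-promoting complex, went the other way: it read 11.57, 11.97, 11.58 and 11.85 in the NOD1 line, against 10.63, 10.46, 10.47 and 10.63 in the NLRP4 line. It was 2.29-fold higher without overlap (adjusted p = 4.78e-09). PLK1, a mitotic kinase, rose by 0.87 and KIF2C, a microtubule depolymerase, by 0.72, whereas MKI67 (Ki-67) and TOP2A fell by 0.76 and 0.70. CDC20 spans 4.22 kb of genome and CENPF 61.4 kb, but they are a chosen pair. Whether span and direction go together within this list was not tested. Among 17 cyclins, kinases and inhibitors 5 rose and 3 fell (4 and 3 with centring); CDK2 rose by 0.83 and GADD45A, a damage-induced regulator, by 0.99, and the retinoblastoma gene RB1 fell by 1.07 (adjusted p = 3.25e-09). Of 24 BCL2 family and death receptor genes 5 rose and 1 fell, 25% against 27.0% of all genes (2 and 1 with centring), with MCL1 at 0.49 and BCL2 at -0.40; the call of MCL1 was lost with centring.

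Centrosome and cilium genes fell in larger share than any other list examined. Of 51 measured, 36 fell, 2 rose and 13 did not pass, with a median of -0.74; with DOX 29 fell and 2 rose (median -0.47), and with centring 36 fell and 0 rose. CEP152, a scaffold for centriole duplication, read 10.10, 9.23, 10.29 and 9.67 in the NOD1 line, against 11.23, 11.27, 11.33 and 11.44 in the NLRP4 line. CEP162, a protein of the ciliary transition zone, read 7.97, 7.94, 8.09 and 8.30 in the NOD1 line, against 9.30, 9.60, 9.93 and 9.59 in the NLRP4 line. Both fell on all arrays, CEP152 by 2.82-fold (adjusted p = 4.40e-08) and CEP162 by 2.89-fold (adjusted p = 3.58e-08). AKAP9, a giant scaffold of centrosome and Golgi, was 3.25-fold lower. CEP128 fell by 0.97, CEP135 fell by 1.38, and IFT74, a carrier subunit of intraflagellar transport, by 1.57.

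Members of this list are long genes, with a median genomic span of 82 kb against 24.5 kb over all genes. With each array's trend against gene span removed, 36 members fell and 1 rose, with a median of -0.68. Between the lines that trend was small. In 5 equal groups of genes ordered by span, the median difference was 0.06 in the shortest and -0.03 in the longest. Its removal could hardly move falls of this size, so the part of gene length in them was not tested. Of 31 chromatin regulators, with a median span of 101 kb, 13 fell and 6 rose, with a median of -0.10 that was 0.02 without added scaling; with centring 14 fell and 4 rose. ATRX, a remodeller of heterochromatin spanning 281 kb, read 10.34, 9.50, 10.32 and 10.12 in the NOD1 line, against 11.62, 11.76, 11.95 and 11.65 in the NLRP4 line. It was 3.19-fold lower without overlap (adjusted p = 4.35e-09). SUZ12, a Polycomb subunit, fell by 0.82, while the deacetylase HDAC1 rose by 0.84.

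Gene length went with direction over the whole array. In 5 equal groups of genes ordered by span, the share called lower was 3.43% in the shortest group, then 5.11%, 12.3% and 20.1%, and 23.3% in the longest. The share called higher was 13.5%, 17.4%, 16.7%, 13.6% and 9.33% in the same order. In DOX-treated wells the shares called lower were 5.38%, 5.19%, 10.2%, 17.9% and 21.5%. Across the 18386 genes with a span, Spearman's rho between difference and span was -0.173 without DOX and -0.136 with DOX, a description over genes. Between the NLRP4 and vector lines without DOX the median difference lay between -0.01 and 0.00 in all 5 groups. RNA integrity was not among the data used here, and its part in the trend was not tested.

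**Figure D5:**
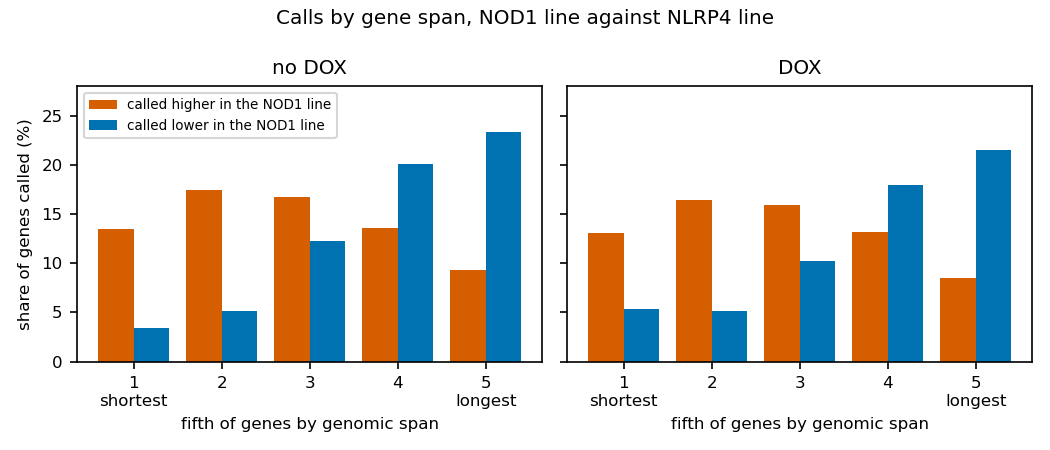
Percent of genes called higher and lower in the NOD1 line in 5 equal groups of genes ordered by genomic span, without and with DOX. The share called lower climbs to 23.3% in the longest group without DOX, from 3.43% in the shortest.

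Noncoding genes were called less often than coding ones. Of 16899 protein-coding genes 28.5% were called, against 7.44% of 632 long noncoding RNA genes and 5.2% of 173 microRNA genes. The share was 9.71% of 175 small nucleolar RNA genes, 15.8% of 393 transcribed pseudogenes and 7.94% of 63 other pseudogenes. These classes were not matched for signal level, and its part in the shares was not tested. MIR222, whose product is known to bind KIT mRNA, read 8.12, 7.35, 6.57 and 6.72 in the NOD1 line, against 8.53, 8.25, 7.51 and 8.85 in the NLRP4 line. The groups overlapped, the NOD1-line mean lay near the low end, and the difference was -1.10 (SE 0.30, adjusted p = 0.00745) and -0.88 with DOX (adjusted p = 0.0333). The probe set reads the primary transcript or hairpin, and mature microRNA was not measured. The 3p strand, shown because MIR222 was 1 of 2 microRNA genes called in the same direction without and with DOX, has its seed (bases 2 to 8) in capitals and lies at chrX:45747036-45747056 on the minus strand (RefSeq, GRCh38.p14).
hsa-miR-222-3p: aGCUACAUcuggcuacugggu

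In places, neighbouring genes were called in the same direction. Along the 18385 genes placed on chromosomes there were 29 runs of at least 5 consecutive measured genes called in the same direction, 15 higher and 14 lower, holding 164 genes. The longest runs held 8 genes. With 27.0% of all genes called, some runs would be found by chance, and the number to be found so was not tested. Run medians are those of genes selected for their calls. On chromosome 5 the run from CCNH, which encodes cyclin H, to LYSMD3 was lower with a median of -0.78 and included the transcription factor MEF2C (-0.75). On chromosome 11 the run from TRAPPC4 to HINFP was higher with a median of 0.71 and included HYOU1 and the histone variant gene H2AX (0.57). With DOX 6 of the 8 genes were called in the same direction in each of these runs.

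PPP1R3A, the largest fall, sat in a run of 6 lower genes on chromosome 7 from TMEM168 to FOXP2, with a median of -0.98 and all 6 called with DOX. ANKRD26 sat in a run of 5 lower genes on chromosome 10 from ABI1 to ACBD5 (median -0.73), and KIF11 in another of 7 on the same chromosome from BTAF1 to EXOC6 (median -0.62). CDC20 opened a run of 6 higher genes on chromosome 1 that ended with the demethylase gene KDM4A (median 0.86), all 6 called with DOX. Runs of bitter taste receptor genes on chromosome 12 (TAS2R50 to TAS2R46) and zinc finger genes on chromosome 19 (ZNF85 to ZNF708) hold close copies whose signals are not independent.

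Whole chromosomes differed in the balance of calls. On chromosome 16, with a median span of 18.2 kb, 27.7% of 759 genes were higher and 2.11% lower. On chromosome 22, with a median span of 20.4 kb, 17.7% of 423 genes were higher and 2.6% lower. On chromosome 13, with a median span of 45.9 kb, 4.1% of 317 genes were higher and 29% lower, and on chromosome 18, with a median span of 50.4 kb, 2.65% of 264 were higher and 23.1% lower. Chromosomes of like median span could differ in balance. On chromosome 1, with a median span of 22.7 kb, 22.7% were higher and 8.68% lower. On the X chromosome, with a median span of 21.1 kb, 9.08% were higher and 13% lower. Chromosome copy number was not among the data used here, and gene span and chromosome were not separated.

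The lists of markers of other cell types had at most 16.7% of members called, against 27.0% of all genes. NCAM1 (-2.24), also found on natural killer cells, is not counted in the T cell and natural killer list. Of 18 T cell and natural killer markers 2 rose and 1 fell, of 12 B cell markers and 13 erythroid and platelet markers 0 were called in either direction, and of 19 fibroblast, epithelial and packaging cell markers 1 fell, which was EPCAM. With centring 0 rose and 1 fell in the T cell and natural killer list, 0 rose and 1 fell in the erythroid and platelet list, and the other lists gave the same counts. The array medians of the T cell and natural killer list lay between 7.52 and 7.71 in the NOD1 line and between 7.44 and 7.61 in the NLRP4 line. For the fibroblast, epithelial and packaging cell list they lay between 8.02 and 8.23 in the NOD1 line and between 8.18 and 8.30 in the NLRP4 line.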

How the data were processed

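Affymetrix Human Gene ST arrays measured total RNA of 24 wells. The table the authors deposited holds a log2 signal for each probe set and array; RMA and the R package oligo are named per the submitters' processing notes, with versions not given in the sources used here. Deposited array medians ran from 8.30 to 8.81 over the 8 uninduced NOD1- and NLRP4-line arrays, so the 24 arrays were quantile normalized. Of 33297 probe sets, 19460 named a single gene symbol, 1754 several and 12083 none. The probe set with the highest mean stood for its gene, which gave 18417 genes; 769 had several probe sets.

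Limma 3.58.1 (R 4.3.3) fitted the 6 groups together without covariates, with 18 residual degrees of freedom, and p-values were Benjamini-Hochberg adjusted over all genes. The number of arrays limits the precision. NOD1 and NLRP4 were also tested with an exact permutation test. The fit was tested on simulated data. A gene mean at or under the 20th percentile of gene means (log2 7.54) was taken as near the low end, and a fold against it is a bound. Gene spans, promoters and the microRNA come from RefSeq (GRCh38.p14), and the motif search read both strands.

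The lines compared, the gene lists and the tests were chosen with earlier results of these data known. Named genes are NOD1 and NLRP4; the 15 largest rises and 15 largest falls among genes called in both comparisons with uninduced arrays that did not overlap; in each of 36 lists, as many as 4 called members taken by lowest p; and genes in runs of at least 5 called neighbours. Genes chosen after their values were seen are IL12RB2, FLT3, MIR222, REL, CASP4, PYCARD, IL1B, RIPK2, NOD2, CHUK, IKBKB, HERC5, IFI44, IFI44L, IFITM2, IFITM3, MX2, ISG15, IFIT1, OAS2, BST2, TRIM22, TAP1, LYZ, CD14, CD4, ITGA5, IL6R, MPO, NQO1, ME1, SLC7A11, AKR1C1, TXNRD1, GCLM, HMOX1, NFE2L2, KEAP1, DDIT3, DDIT4, SLC7A5, LARS1, EIF2AK3, ENO1, ALDOA, HK2, FASN, SLC2A1, SLC2A3, HIF1A, LDHA, PGK1, MKI67, TOP2A, PLK1, KIF2C, AKAP9 and IFT74. Alternatives were arrays centred on their medians, values as deposited, the compared arrays alone, the mean of all probe sets, no dim genes, a trended and robust prior, array weights, the array median as a covariate, and each array left out in turn. Removing each array's trend against gene span, and leaving out the array of each uninduced line with the lowest deposited median, were chosen after seeing the data.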

Additional observations from a re-analysis of the deposited data

Results flagged for a closer look

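Each of the 210 named genes was examined for an array that stood apart from the other 3 of its group. Of 420 groups of 4 arrays 17 (4.05%) held such an array, where chance flags about 1 in 20, and each of the 8 arrays held between 1 and 3 of them. In the NOD1 line a single array was high for TNIP2, an A20 partner (9.84, the others 9.37 to 9.45), for CCNE1 (11.26, the others 10.86 to 10.91), for ALAS1 (12.01, the others 11.47 to 11.55) and for CEP135 (9.94, the others 9.35 to 9.43). A single NOD1-line array was low for RNF31 (8.98, the others 9.23 to 9.25), the inhibitor of differentiation ID2 (10.12, the others 10.52 to 10.57), the class II regulator RFX5 (10.75, the others 10.98 to 11.02), LYZ (13.78, the others 13.87 to 13.88) and AKR1C1 (9.20, the others 9.85 to 9.90).

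In the NLRP4 line a single array was high for CEP128 (11.78, the others 11.66 to 11.68) and CASP4 (11.19, the others 10.99 to 11.02). A single NLRP4-line array was low for DPY19L2P2 (9.43, the others 9.65 to 9.68), the class II regulator RFXAP (9.36, the others 9.61 to 9.66) and the death inducer BCL2L11 (9.28, the others 9.43 to 9.45). The same held for COX8A of the respiratory chain (11.59, the others 12.06 to 12.12), the ribosomal protein gene RPL8 (12.68, the others 13.26 to 13.37) and SUZ12 (12.81, the others 12.98 to 12.99). RFX5 was 0.45 higher in the NOD1 line, RFXAP -0.50, ID2 0.46, BCL2L11 0.38, RPL8 0.58 and COX8A 0.82, each called. RFX5, RPL8 and ID2 lost their call with arrays centred, and RFXAP lost its call without added scaling.

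The line difference changed with DOX for NOD1, by 3.79, and for NLRP4, by -3.84, in limma's test of the change.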

How the results depend on the processing

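Alternatives kept the direction of all called named genes in every fit run. The number of called genes ran from 3569, with the dimmest array of each line left out, to 5065 with the array median as a covariate, without DOX, and from 3804 to 5200 with DOX, over the fits that changed a setting. The NOD1 call was lost with the dimmest arrays left out (0.42); over fits without 1 array the difference ran from 0.39 to 0.54, and the call was lost without replicate 1 of the uninduced NLRP4 line. The NLRP4 difference kept its call and ran from -1.20 to -0.89. The test of a change with DOX called between 2 and 4 genes with an array left out, and 4 without replicate 1 of the DOX-treated NOD1 line or replicate 2 of the uninduced NOD1 line. Of the 199 called named genes, 182 kept the call in all 8 fits without an array. Calls were lost by 21 genes with centring, 6 without added scaling, 15 without the dimmest arrays, 9 with the span trend removed, 9 with the compared arrays alone and 3 with array weights; the cause was not tested. Of the 36 list medians, 20 moved by more than the spread between arrays with centring, 14 without added scaling and 4 with the span trend removed. The lowest signals near background limit folds to bounds. No paired analysis was possible because array numbers run on through the series and no number is shared between groups.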
